A study of Rattus norvegicus with 36 samples.

Results

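MHC class II molecules present peptides from engulfed or extracellular proteins to CD4 T cells. An alpha and a beta chain form the peptide groove, in the rat RT1-Da with RT1-Db1 (the D molecule) and RT1-Ba with RT1-Bb (the B molecule). The invariant chain, encoded by Cd74, occupies the groove during transport, the DM heterodimer (RT1-DMa is its alpha chain) helps exchange the invariant chain remnant for peptide, and Ciita encodes the transactivator that switches the whole gene group on. In nerve tissue, class II is known mainly from macrophages and other antigen-presenting cells. RT1-Ha is annotated among the class II alpha chain genes of the rat complex.

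These 8 genes were followed in rat dorsal root ganglia, which hold the cell bodies of sensory neurons next to the spinal cord. A probe set, the group of oligonucleotides that reports one transcript on an Affymetrix array, was taken as a member when the platform annotation gave it only 1 of the 8 symbols. This found 28 probe sets among 26202 probe sets of 10969 named genes, and 19 of the 28 were bright enough to be tested, among 15721 tested in all. Every gene kept at least 1 tested probe set. Cd74 had 6 (4 tested), RT1-Da 2 (2 tested), RT1-Db1 4 (4 tested), RT1-Ba 5 (4 tested), RT1-Bb 7 (2 tested), RT1-DMa 2 (1 tested), and RT1-Ha and Ciita 1 each. The probe sets lay on chips A and C, except 1 of RT1-Bb and that of Ciita, which lay on chip B.

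The groups were the L5 ganglia of rats whose spinal nerve L5 had been tied off (a neuropathic pain model) at 50 and at 28 days, the L4 ganglia of operated rats, whose own nerve was not ligated, at 50 and at 28 days, and ganglia of sham-operated rats at 50 and at 28 days. In the sham pools L4 and L5 ganglia were mixed, and a normal difference between those levels is part of every comparison with sham. Each of the 6 pools held ganglia of 30 rats where the labels give a number, and their strain, sex and age are not given. With 2 technical repeat arrays per pool on each of 3 chip types, there were 36 arrays. The pools of the 2 days therefore stand as the 2 samples of a condition, and at a given day there was 1 pool per condition and no test. One sham array of chip B carried 28 days in its title and 50 days in its description. It was kept with the 28-day pool, whose other array it resembled slightly more (r = 0.954, against 0.933 and 0.929 with the 50-day sham arrays), and it bears only on Ciita and 1 untested RT1-Bb probe set.

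Values are MAS5 signals, arbitrary intensity units that had been scaled to a common array mean (the trimmed mean was 150.07 to 150.21 on every array). Array medians lay between 50.6 and 91.8, and repeat arrays of one pool had r = 0.882 to 0.958 across tested probe sets. Signals of different probe sets cannot be set against each other as amounts of RNA. The ganglion identity of the pools was visible in neuron markers: 13 of 14 listed genes were tested, with summed signals of 46290 and 40160 in L5 at 50 and 28 days, 49800 and 46320 in L4, and 54330 and 45500 in sham. Log2 differences are given with the standard error (SE) of a limma fit over the 6 pools with condition and day as terms, n = 2 pools per condition, and adjusted p-values are Benjamini-Hochberg over all 15721 probe sets with a threshold of 0.05. In whole ganglia, a change in RNA per cell and a change in the number of cells of a type cannot be told apart.

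Class II genes are known to share a promoter layout, an X box bound by the RFX factors followed by a Y box, an inverted CCAAT sequence bound by NF-Y, on which CIITA assembles without touching the DNA. The RefSeq promoter windows of 7 members, all but Ciita (GRCr8, from 250 bases before to 50 bases after the gene start) were searched on both strands, with motifs settled on after these sequences had been read. The Y core TGATTGG was in 6 of the 7 windows and in 7.06% of all 33469 windows. It contains the shorter ATTGG, found in all 7 and in 37.5% of all windows. The loosely written X core GCNACNG was in 6 of the 7, and in 41.0% of all windows. GCNACNG followed by TGATTGG at 5 to 30 bases on the same strand was in 5 of the 7, against 0.188% of all windows. The stretches below are shown because they carry that shared layout. Each is 65 bases long and runs 5′ to 3′ along the gene. Capitals mark the X and Y cores (in Cd74, which had no TGATTGG, the CCAAT that is ATTGG on the other strand).
RT1-Da, GRCr8 chr20:4515319-4515383, plus strand: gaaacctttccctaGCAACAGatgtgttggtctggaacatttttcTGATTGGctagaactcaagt
RT1-Db1, GRCr8 chr20:4560225-4560289, minus strand: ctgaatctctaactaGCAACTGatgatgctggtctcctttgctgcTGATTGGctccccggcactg
RT1-Ba, GRCr8 chr20:4576967-4577031, plus strand: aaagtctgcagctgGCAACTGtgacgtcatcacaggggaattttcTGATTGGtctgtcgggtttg
RT1-Bb, GRCr8 chr20:4604162-4604226, minus strand: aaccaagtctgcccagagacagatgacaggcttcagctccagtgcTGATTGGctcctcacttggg
RT1-DMa, GRCr8 chr20:4712382-4712446, minus strand: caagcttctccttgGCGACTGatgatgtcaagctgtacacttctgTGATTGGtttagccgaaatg
RT1-Ha, GRCr8 chr20:4772236-4772300, minus strand: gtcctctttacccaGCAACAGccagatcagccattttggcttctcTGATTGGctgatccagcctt
Cd74, GRCr8 chr18:56526972-56527036, plus strand: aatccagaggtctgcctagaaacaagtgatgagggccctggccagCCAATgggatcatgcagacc

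The space between the capitals was 24 bases in RT1-Da, RT1-Ba, RT1-DMa and RT1-Ha and 23 bases in RT1-Db1. In RT1-Bb only the Y core was matched in this stretch, and in Cd74 neither core was matched. These matches describe letters in a window and do not show binding.

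In L5 ganglia the class II signals were mostly higher than in sham, and Cd74 was the member that passed the test. Of the 19 tested probe sets, 16 were higher in L5 than in sham and 3 were lower (15 and 4 with arrays scaled to their hybridisation controls, where RT1-Ha turned to -0.09). The median difference of the 19 was 0.64, against 0.04 over all 15721 probe sets, of which 53.6% were above 0. That median was 0.41 without the 28-day L5 pool, 0.31 without the 28-day sham pool (15 of 19 above 0), and 0.21 with hybridisation controls, where the median of all probe sets was -0.35. Since the brightness filter used the mean over all arrays, a high L5 pool helped a probe set to pass, and with no filter 24 of the 28 member probe sets were above 0, with a median of 0.60. One of the 19, Cd74 X13044_g_at, was called, where 0.782% of all probe sets were called and 0.235% were called higher. Without adjustment 12 of the 19 had p under 0.05, all higher in L5, where 7.42% of all probe sets did so. Probe sets of a gene share a transcript, and the RT1 chains are close paralogs, so these counts are not counts of independent measurements.

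Cd74 showed the largest difference of the group, and its probe sets disagreed. X13044_g_at read 184 and 200 in the L5 pool of 50 days and 876 and 863 in that of 28 days. In the L4 pools it read 99.9 and 35.8 at 50 days and 243 and 185 at 28 days, and in the sham pools 24.5 and 126 at 50 days and 128 and 145 at 28 days. Every L5 array was above every sham array, the 28-day L5 pool stood far above all others, and the arrays of the 50-day sham pool were far apart. The difference between L5 and sham was 2.03 ± 0.27 (4.10-fold on the log2(signal + pseudocount) scale, adjusted p = 0.0151). The difference kept its direction with each pool left out in turn (1.63 to 2.44). The call was lost when a pool was represented by its first array alone (2.53, adjusted p = 0.075) or by its second (1.54, adjusted p = 0.194). It was also lost when the prior variance was not allowed to follow intensity (adjusted p = 0.135) and without the day term (adjusted p = 0.404).

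The partner probe set X13044_at, from the same sequence, read 113 and 159 in L5 at 50 days and 427 and 446 at 28 days. It read 119 and 134 (50 days) and 184 and 180 (28 days) in L4, and 128 and 63.9 (50 days) and 142 and 168 (28 days) in sham. Its L5 arrays were above those of sham at 28 days and overlapped them at 50 days, and the difference of 0.96 ± 0.28 missed the threshold (adjusted p = 0.127). The brightest Cd74 probe set, rc_AI105172_r_at on chip C, followed another order.

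That probe set read 807 and 795 in L5 at 50 days, 814 and 713 in L5 at 28 days, 453 and 764 in L4 at 50 days, 763 and 780 in L4 at 28 days, 776 and 938 in sham at 50 days, and 335 and 353 in sham at 28 days. Only the 28-day sham pool stood apart, low on both arrays, and L5 exceeded sham by 0.51 ± 0.31 (adjusted p = 0.434). Its companion rc_AI105172_i_at ran from 12.2 to 152 on the L5 arrays and from 65.5 to 216 on the sham arrays, with a difference of -0.24 ± 0.38. The endings _i_at and _r_at mark probe sets designed with too few probes or under relaxed rules, and _s_at and _f_at those that can match several transcripts or a gene family. Whether the called X13044_g_at, with the ending _g_at, matches Cd74 alone was not examined beyond its annotation. Over the 6 pools, X13044_at followed X13044_g_at at r = 0.948, while the chip C probe sets did so at r = 0.175 and -0.134.

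Of the 2 untested probe sets of Cd74, X14254cds_g_at read 18.3 and 11.4 in L5 at 50 days and 125 and 62.2 in L5 at 28 days. All L4 and sham arrays lay between 3.1 and 26.5. This dim probe set was thus high in the same pool as X13044_g_at. X14254cds_at read 12.4 to 23.4 in L5 and 4.1 to 13.1 in sham.

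For RT1-Da, the alpha chain of the D molecule, M15562_g_at read 500 and 458 in L5 at 50 days and 2095 and 2036 in L5 at 28 days. It read 291 and 359 in L4 at 50 days, 580 and 590 in L4 at 28 days, 344 and 347 in sham at 50 days, and 447 and 515 in sham at 28 days. Both L5 arrays were above both sham arrays at either day, but the 50-day L5 arrays did not clear those of 28-day sham. The difference between L5 and sham was 1.27 ± 0.30 (2.41-fold, adjusted p = 0.0758), which missed the threshold. It was 0.55 without the 28-day L5 pool and 1.98 without the 50-day one. Without the 28-day sham pool it was 0.77, and without the 50-day one 1.77. In such fits the lone pool is assumed to vary like the others, so their p-values are not given. The dimmer M15562_at differed by 0.68 ± 0.31 (adjusted p = 0.293), with 345 and 323 on the 28-day L5 arrays and no more than 183 on any other array.

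RT1-Db1, the beta chain, was brightest in rc_AI111537_s_at, with 2414 and 2395 in L5 at 50 days and 3186 and 4035 in L5 at 28 days. This probe set read 1484 and 1756 in L4 at 50 days, 1615 and 1910 in L4 at 28 days, 2193 and 2034 in sham at 50 days, and 1410 and 1780 in sham at 28 days. All 4 L5 arrays were above all 8 others, by a narrow margin at 50 days, and the difference from sham was 0.68 ± 0.24 (adjusted p = 0.189). X53054_at (1.09 ± 0.46) and X53054_g_at (0.75 ± 0.30) were dimmer and higher in L5 as well, with adjusted p of 0.263 and 0.235. The last RT1-Db1 probe set, rc_AI169390_at, differed by -0.20 ± 0.37, with 114 and 147 on the 50-day sham arrays and 16.0 to 97.5 on the other 10.

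For RT1-Ba, the alpha chain of the B molecule, rc_AI236175_f_at read 328 and 222 in L5 at 50 days, 320 and 359 in L5 at 28 days, 189 and 194 in L4 at 50 days, 219 and 228 in L4 at 28 days, 168 and 201 in sham at 50 days, and 159 and 145 in sham at 28 days. Every L5 array was above every sham array (0.79 ± 0.21, adjusted p = 0.109). M22366_at (0.74 ± 0.27) and K02815_s_at (0.64 ± 0.24) leaned the same way with adjusted p of 0.201 and 0.208. X07551cds_s_at was the exception, at -0.30 ± 0.32, with its lowest L5 values (38.4 and 35.5) in the 28-day pool where the others were high. For the beta chain RT1-Bb, X56596_at (0.64 ± 0.28) and M36151cds_s_at (0.59 ± 0.33) missed the threshold (adjusted p = 0.275 and 0.388). Of the 6 untested probe sets of RT1-Ba and RT1-Bb, 5 did not exceed 41.6 on any array, and rc_AI228153_s_at read 137 and 142 in L5 at 28 days against 75.9 and 43.7 in sham at 28 days.

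RT1-DMa and Ciita had another time order, with their highest values in the 50-day L5 pool. The RT1-DMa probe set U31598_s_at read 259 and 215 in L5 at 50 days and 121 and 158 in L5 at 28 days, against 93.8 to 148 in L4 and 90.9 to 136 in sham. The difference between L5 and sham was 0.60 ± 0.27 (adjusted p = 0.292). The untested RT1-DMa probe set Z49761_at instead read 51.3 and 14.9 in L5 at 50 days, 100.1 and 99.5 in L5 at 28 days, and 12.1 to 23.8 on the L4 and sham arrays, so the probe sets of this gene placed the peak at different days. Ciita read 160 and 168 in L5 at 50 days, 113 and 92.5 in L5 at 28 days, 116 and 84.9 in L4 at 50 days, 71.3 and 43.0 in L4 at 28 days, 95.2 and 101 in sham at 50 days, and 73.0 and 95.4 in sham at 28 days. The 50-day L5 arrays were above all others, and the difference from sham, 0.45 ± 0.23, missed the threshold (adjusted p = 0.373). RT1-Ha was dim, at 36.8 to 61.9 in L5 and 30.5 to 51.7 in sham, with overlapping groups (0.28 ± 0.39, adjusted p = 0.746).

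**Figure D1:**
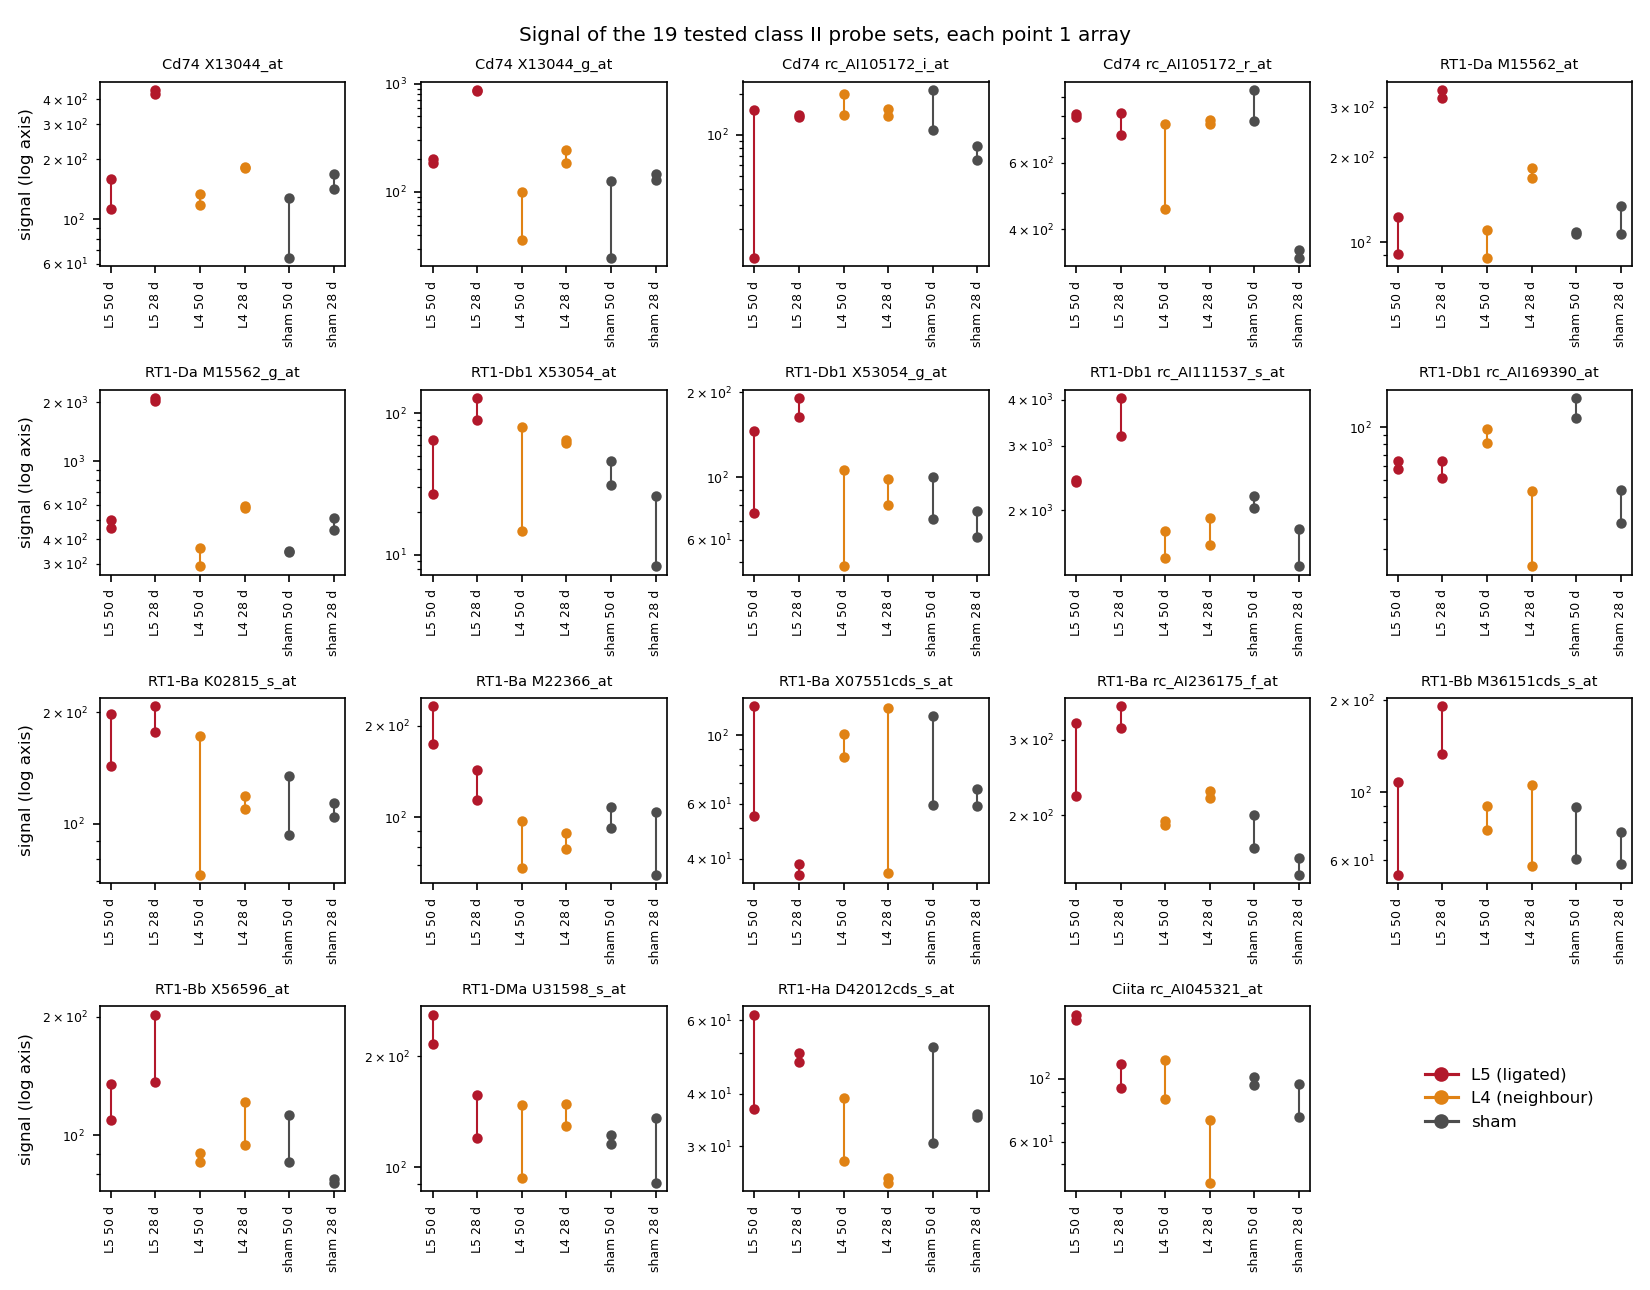
Signal of each of the 19 tested class II probe sets (log axis in arbitrary units, a scale of its own in each panel) in the L5, L4 and sham pools at 50 and 28 days; each point is 1 array and a line joins the 2 arrays of a pool. Cd74 X13044_g_at and RT1-Da M15562_g_at stand highest in the 28-day L5 pool, at 863 to 876 and 2036 to 2095, while Ciita and RT1-DMa are highest in the 50-day L5 pool.

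**Figure D2:**
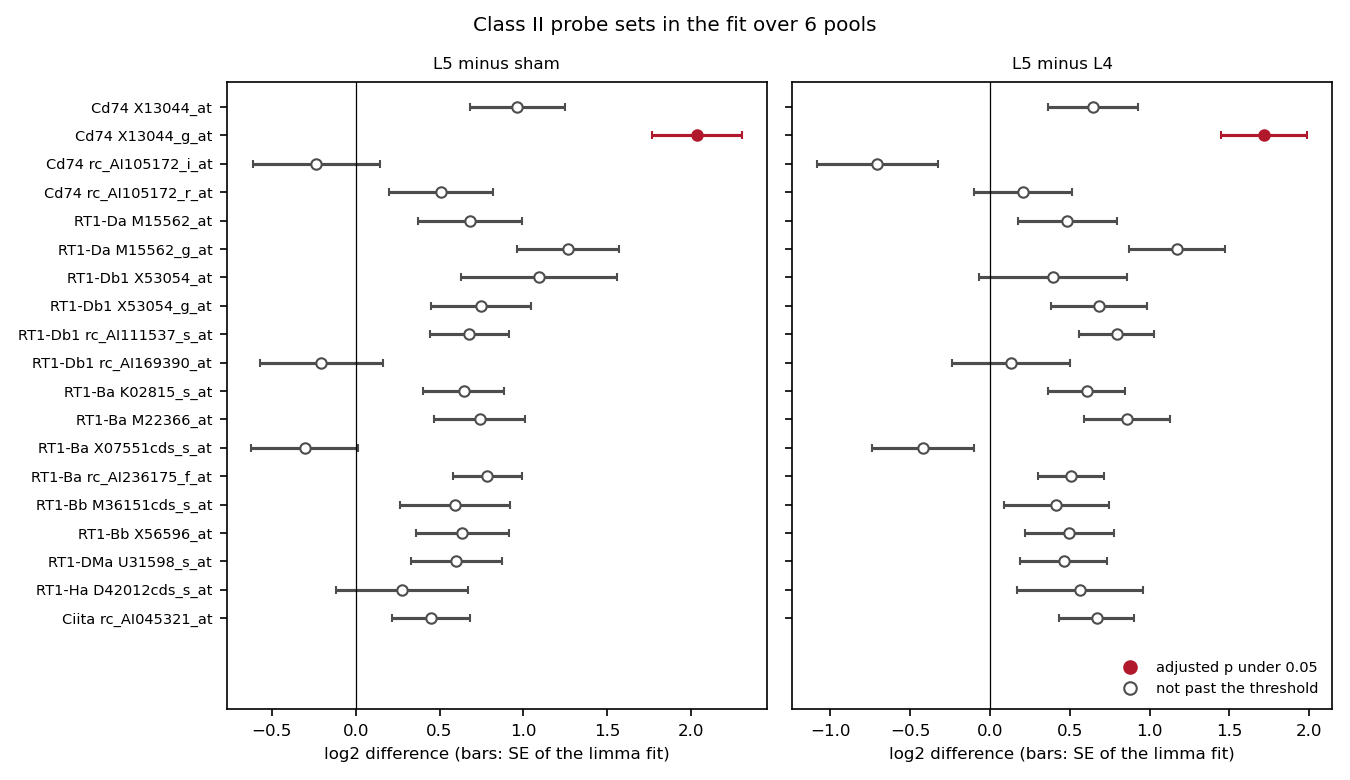
Log2 difference of L5 from sham (left) and from L4 (right) for the 19 tested probe sets, with the SE of the limma fit over 6 pools; filled points passed an adjusted p of 0.05. Cd74 X13044_g_at is the filled point on each side, at 2.03 and 1.72, and 16 and 17 of the 19 lie above 0 (15 and 10 with arrays scaled to hybridisation controls).

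Set against L4 ganglia, from operated rats too, the L5 signals gave a like picture. The same probe set of Cd74 was called, at 1.72 ± 0.27 (3.29-fold, adjusted p = 0.0226), where 1.29% of all probe sets were called and 0.274% were called higher. This call was lost with quantile normalization (1.65, adjusted p = 0.0548) and without the filter on dim probe sets (adjusted p = 0.0522), and under the same 4 settings as the call against sham. RT1-Da M15562_g_at differed by 1.17 ± 0.30 (adjusted p = 0.0827), RT1-Ba M22366_at by 0.86 ± 0.27 (adjusted p = 0.130), RT1-Db1 rc_AI111537_s_at by 0.80 ± 0.24 (adjusted p = 0.118) and Ciita by 0.67 ± 0.23 (adjusted p = 0.173). In all, 17 of the 19 were above 0, with a median of 0.51 against 0.04 over all probe sets, of which 53.7% were above 0; with scaling to hybridisation controls 10 were above 0, while the median of all probe sets shifted to -0.50 and 17 lay above that median. The median of the 19 was then 0.05, and it was 0.34 without the 28-day L5 pool (13 above 0). With hybridisation controls, Cd74 rc_AI105172_i_at (-0.71 ± 0.38 as reported) was called lower in L5 than in L4, at -1.14 (adjusted p = 0.0327). So was RT1-Ba X07551cds_s_at (-0.42 ± 0.32 as reported), at -0.88 (adjusted p = 0.0483), while Cd74 X13044_g_at was called higher, at 1.18. In that setting 33.2% of all probe sets were called, 5192 lower and 31 higher. Without the 28-day L5 pool, Cd74 rc_AI105172_i_at was at -1.52, Cd74 X13044_g_at at 1.33 and RT1-Ba M22366_at at 1.11. Unadjusted, 9 of the 19 had p under 0.05, all higher in L5, against 8.44% of all probe sets. The comparisons with sham and with L4 share the L5 pools.

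L4 ganglia did not differ detectably from sham. Of the 19 tested probe sets 0 were called by limma and 0 had an unadjusted p under 0.05, where 0% and 2.71% of all 15721 probe sets did so. The differences ran from -0.34 to 0.70 with 14 of 19 above 0 (49.3% of all probe sets) and a median of 0.14 (all probe sets: -0.004). For Cd74 X13044_g_at the difference was 0.32 ± 0.27 (95% interval -0.27 to 0.90) and for RT1-Da M15562_g_at 0.09 ± 0.30 (-0.56 to 0.75). At 28 days alone, with 1 pool each and no test, 10 of the 19 probe sets had both L4 arrays above both sham arrays. Another 2 had them below, where 20.9% and 22.8% of all probe sets were above and below. The median difference at 28 days was 0.28, with 16 of the 19 above 0. At 50 days 0 of the 19 were above and 3 were below, where 19% of all probe sets were above and 19% were below. L4 exceeded sham at 28 days by at least 1 with arrays apart for 2 of the 19 probe sets. These were RT1-Db1 X53054_at (1.40) and Cd74 rc_AI105172_r_at (1.12), where 1.02% of all probe sets did so. In both, the 28-day sham pool was the lowest of the 6. Without that pool the median of the 19 against sham was -0.14, with 5 above 0 rather than 14.

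Taken day by day, more class II probe sets had L5 above sham at 28 than at 50 days. Differences at a single day come from 1 pool each and carry no test. At 50 days, 8 of the 19 probe sets had both L5 arrays above both sham arrays and 1 had them below, where 28.9% and 25.2% of all probe sets did so, and the median difference was 0.27. At 28 days 16 of the 19 were above and 1 below, where 25.7% and 24.7% of all did so, and the median difference was 1.06. A log2 difference of at least 1 with arrays apart was seen for 1 of the 19 at 50 days (3.13% of all probe sets) and for 10 of the 19 at 28 days (2.67% of all). Against the L4 pool of the same day it was seen for 2 at 50 days (3.86% of all) and 4 at 28 days (3.12% of all). The median differences from L4 were 0.43 and 0.70. The 28-day sham pool was lower than the 50-day sham pool for 15 of the 19 (median of 50 minus 28 days 0.24, all probe sets 0.02). The exceptions were Cd74 X13044_g_at (-1.05) and X13044_at (-0.69), and RT1-Da M15562_g_at (-0.46) and M15562_at (-0.14). Whether the day changes the response was not tested, since that term leaves no residual degree of freedom among 6 pools.

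Not all members had their larger difference at the same day. Cd74 X13044_g_at exceeded sham by 1.50 at 50 days and by 2.57 at 28 days, RT1-Da M15562_g_at by 0.46 and 2.08, and RT1-Db1 rc_AI111537_s_at by 0.19 and 1.17. RT1-Ba M22366_at had its larger difference at 50 days (0.92, and 0.56 at 28 days), as did RT1-DMa U31598_s_at (0.92 and 0.28) and Ciita (0.65 and 0.24). These differences between days and between members were not tested. Over the 6 pools, RT1-Da M15562_g_at followed Cd74 X13044_g_at at r = 0.968 and RT1-Db1 rc_AI111537_s_at at r = 0.773, against 0.297 for RT1-DMa, 0.019 for Ciita and -0.901 for RT1-Ba X07551cds_s_at. These are descriptions over 6 points that share arrays and conditions.

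**Figure D3:**
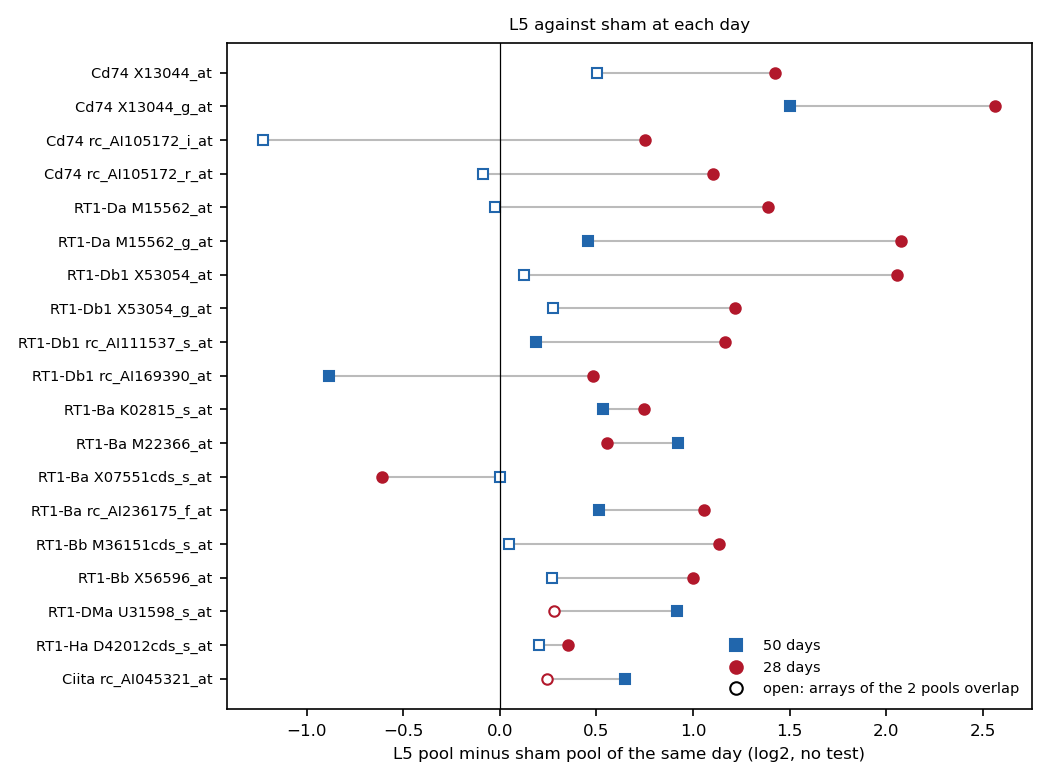
Log2 difference between the L5 pool and the sham pool of the same day for the 19 tested probe sets, with squares for 50 days and circles for 28 days; open symbols mark pools whose arrays overlap, and there is no test. Most circles lie right of their squares, up to 2.57 for Cd74 X13044_g_at, while RT1-Ba M22366_at and X07551cds_s_at, RT1-DMa and Ciita lie further right at 50 days.

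In the day term of the fit, which runs over all 3 conditions, Cd74 X13044_g_at was lower at 50 than at 28 days by 1.59 on the log2 scale (-1.59 ± 0.22, adjusted p = 0.0123). It was the only one of the 19 to be called, where 0.286% of all probe sets were called and 0.184% were called lower. RT1-Da M15562_g_at (-1.12 ± 0.25, adjusted p = 0.0986) and Cd74 X13044_at (-0.93 ± 0.23, adjusted p = 0.106) missed the threshold. The direction of the 19 as a group rested on the pools used: their median was -0.09 with 7 above 0 (54.1% of all probe sets), 0.10 with 14 above 0 when one or the other L5 pool was left out, and -0.33 with 6 above 0 when one or the other sham pool was left out. It was -0.22 with the first array of each pool only, and 0.03 with 11 above 0 with the second only. With all pools, those above 0 included Ciita at 0.49 ± 0.19 (adjusted p = 0.224) and RT1-Db1 rc_AI169390_at at 0.89 ± 0.30 (adjusted p = 0.184). Within the L5 pools alone, 5 of the 19 were lower at 50 than at 28 days by at least 1 with arrays apart (4.81% of all probe sets).

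The partners were genes of proteins that process antigen and load class II. Of 27 listed partner genes 22 were on the chips and 17 were tested in their brightest probe set, and 0 were called in L5 against sham by limma. Their median was 0.05 (all named genes: 0.00), and 11 of the 17 were above 0 (7 with median centring and 4 with hybridisation controls), as were 53.6% of all probe sets. Unadjusted p was under 0.05 for 4 higher and 1 lower. Of all probe sets, 16.9% had such a p in either direction and 7.42% were higher with it. Cathepsin S (Ctss), the protease that trims the invariant chain, read 181 in L5 at 50 days and 842 in L5 at 28 days, against 157 and 226 in sham at 50 and 28 days (1.00 ± 0.35, adjusted p = 0.188). Cathepsin H (Ctsh) differed by 0.68 ± 0.25 and Ifi30, a lysosomal thiol reductase, by 0.68 ± 0.24, with adjusted p of 0.221 and 0.20. Cathepsin B (Ctsb) was at -0.49 ± 0.18 (adjusted p = 0.204).

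Other partners were dimmer or nearer to 0. Cd4, the coreceptor that binds class II, differed by 1.12 ± 0.38 (adjusted p = 0.170) at signals of 71.0 and 56.9 in L5, against 23.6 and 28.4 in sham. Mif, a ligand of the Cd74 protein, was at -0.34 ± 0.18, the costimulator Cd86 at 0.34 ± 0.35, and RT1-DOa, a chain of the DO modulator of DM, at 0.27 ± 0.25. None of these passed the adjusted threshold.

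Along the route to CIITA, 20 of 29 listed genes were tested and 0 were called by limma. At an unadjusted p under 0.05 there were 1 higher and 1 lower (16.9% of all probe sets in either direction). Their median was 0.21, with 17 of 20 above 0 (13 with quantile normalization or median centring and 4 with hybridisation controls). The interferon gamma receptor chain Ifngr1 was at -0.64 ± 0.39, the interferon regulatory factors Irf8 and Irf2 at 0.56 ± 0.32 and 0.51 ± 0.30. Rfx5 and Rfxank, subunits of the X box factor, were at 0.11 ± 0.32 and 0.04 ± 0.22. Among class I genes, which present peptides made inside the cell, 0 of 21 tested were called, with a median of 0.09 and 15 above 0 (17 with quantile normalization, 9 with median centring and 5 with hybridisation controls). The largest was Erap1, an aminopeptidase that trims class I peptides, at 0.97 ± 0.20 (adjusted p = 0.0661), followed by RT1-S3 at 0.75 ± 0.24 and RT1-T24-3 at 0.48 ± 0.26. B2m, the light chain of class I, was at 0.10 ± 0.18.

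Class II is carried by macrophages and other leukocytes, whose markers were listed too. Of 26 macrophage markers 14 were tested and all 14 had higher values in L5 than in sham (13 with median centring and 10 with hybridisation controls, where all 14 still lay above the median of all probe sets, -0.35). None of the 14 was called by limma, 3 were higher with an unadjusted p under 0.05 (7.42% of all probe sets), and the median was 0.60. Their summed signal was 2268 and 5946 in L5 at 50 and 28 days, 1827 and 2194 in L4, and 2128 and 2257 in sham. Day by day, the median difference of these markers between L5 and sham was 0.07 at 50 days and 1.10 at 28 days, with no test. The largest were Fcer1g, a receptor signalling chain (0.97 ± 0.21, adjusted p = 0.0711), Aif1 (0.88 ± 0.42) and C1qa (0.86 ± 0.36). T cell markers summed to 797 and 601 in L5, 512 and 391 in L4, and 559 and 445 in sham (5 of 20 tested, median 0.38, and -0.04 with hybridisation controls), with Cd3e at 0.56 ± 0.24, Gzmb at 0.50 ± 0.27 and Cd8b at 0.38 ± 0.29. Their part in the class II differences was not tested.

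The other leukocyte lists were short. B cell markers had 3 of 16 tested, median -0.01 (Fcer2 0.72 ± 0.26, Cd72 -0.16 ± 0.43, Cd22 -0.01 ± 0.26), and dendritic cell markers 6 of 12, median 0.39 (Ccr7 0.67 ± 0.20, Clec10a 0.59 ± 0.52, Cd83 0.44 ± 0.29). Pan leukocyte markers had 9 of 14 tested, median 0.47 (Lcp2 0.71 ± 0.42, Arhgdib 0.67 ± 0.21, Coro1a -0.64 ± 0.34). In none of these lists was a gene called.

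Skeletal muscle genes, listed as markers of tissue outside the ganglion although one of them, Pvalb, is also made by sensory neurons, followed the same pools. Skeletal muscle markers summed to 3227 and 6359 in L5 at 50 and 28 days, 2904 and 2717 in L4, and 2923 and 1768 in sham. Of 14 tested, 13 were above 0 in L5 against sham with a median of 1.01 (12 with median centring or hybridisation controls). Tpm2 was called (1.16 ± 0.21, adjusted p = 0.0449). The largest differences, Ttn (1.45 ± 0.53), Acta1 (1.32 ± 0.50) and Tnnc2 (1.28 ± 0.37), missed the threshold. The 28-day L5 pool was the highest and the 28-day sham pool the lowest in summed muscle signal, the pair in which the class II differences were largest. The part of muscle tissue in the class II values was not tested.

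In L5 against sham, lists of resident cells held 0 called genes each by limma. At an unadjusted p under 0.05 there were 3 higher and 0 lower of 8 tested for Schwann cells and 1 and 1 of 10 for vessels. There were 0 and 5 of 13 for neurons, and 1 and 2 of 7 for satellite glia. Of all probe sets, 16.9% had such a p in either direction and 7.42% were higher with it. Myelinating Schwann cell markers had a median of 0.39 (-0.07 with hybridisation controls) and were led by Egr2 (0.76 ± 0.22), Mag (0.63 ± 0.21) and Cnp (0.57 ± 0.20). Vessel markers had a median of -0.07 (Esam -0.62 ± 0.23, Cdh5 0.57 ± 0.18, Tek 0.48 ± 0.25). Neuron markers were at -0.27 (Rbfox3 -0.97 ± 0.19, Isl1 -0.78 ± 0.20, Gng3 -0.60 ± 0.19) and satellite glia markers at -0.44 (Fabp7 -0.87 ± 0.32, Sox10 -0.56 ± 0.31, Apoe 0.48 ± 0.19).

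**Figure D4:**
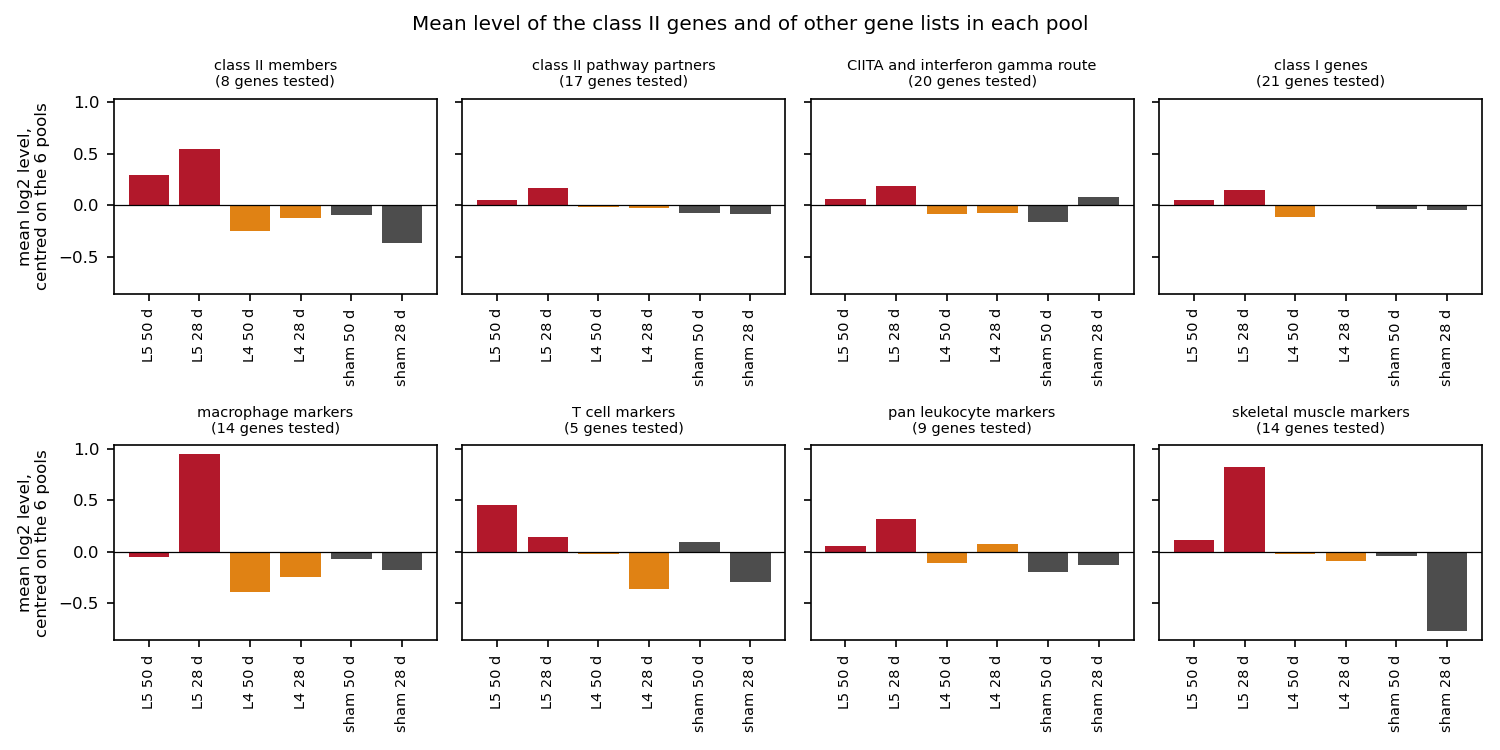
Mean log2 level of the class II genes (brightest tested probe set of each gene) and of 7 other gene lists in each pool, centred on the 6 pools; bars have no error, since each is 1 pool. Class II is above 0 in the L5 pools (0.29 at 50 days, 0.54 at 28 days), macrophage and muscle markers are highest in the 28-day L5 pool (0.95 and 0.83), and class II partners stay between -0.09 and 0.17. With hybridisation controls the median L5 minus sham difference of class II, macrophage and muscle genes was 0.18, 0.20 and 0.59.

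A class II profile, the mean of the 8 genes in their brightest tested probe set, stood at 0.29 and 0.54 in L5 at 50 and 28 days, -0.25 and -0.12 in L4, and -0.09 and -0.37 in sham (log2 levels centred on the 6 pools). For Cd74 it holds rc_AI105172_r_at, the brightest, and not the called probe set. Averaged over all 19 tested probe sets, the profile stood at 0.13 and 0.63 in L5, -0.21 and -0.05 in L4, and -0.13 and -0.37 in sham. Among 3511 other named genes with an SD of at least 0.3, the 10 that followed it most closely were Tmem91 (r = 0.989), Gcnt3, Nsd3, Rab13, Plscr1, Tspo, Folr2, Ctbp2, Fam234a and Samd13 (r = 0.956), over 6 pools and with no test. Tspo, a mitochondrial translocator protein used as a marker of reactive glia and macrophages, read 235 and 314 in L5, 117 and 169 in L4, and 132 and 126 in sham. With all 19 tested probe sets averaged in place of 8, 5 of the 10 genes were shared.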

How the data were processed

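For 36 Affymetrix RG_U34 arrays (chip types A, B and C) the authors deposited linear intensity values, for which the submitters' processing notes name MAS5 without a version. Arrays were scaled to 1 trimmed mean per chip type (2% off each end), and log2(signal + pseudocount) was taken, with the 20th percentile of the chip type as pseudocount (12.8, 17.7 and 20.2 for A, B and C), so folds of dim probe sets are understated. Control probe sets and those with a mean under the 40th percentile (signals of about 35.1, 50.2 and 54.8) were left out. The 2 arrays of a pool were averaged, and limma 3.58.1 in R 4.3.3 (lmFit, eBayes with trend) was fitted per chip type with condition and day, which leaves 2 residual degrees of freedom. The number of pools limits the precision. The p-values rest on the spread between these pools and on a prior variance drawn from all tested probe sets of the chip type. With that prior, Ciita had 9.09 degrees of freedom and Cd74 X13044_g_at 11.9. With 1 pool per condition and day, the spread between pools is how far condition differences vary between the days. No spread beyond these pools was measured. Code was tested on simulated data.

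Symbols came from the platform annotation and promoter windows from RefSeq (GRCr8). Members, gene lists and tests were chosen with earlier results of these data known. Named are all member probe sets, the called genes and the 3 largest differences of each gene list (up to 8 for the partners), and a few genes beside them (Rfx5, Rfxank, B2m, Tspo) picked for their role after their values were seen. Array numbers name technical repeats and pair no samples. Alternatives varied scaling, pseudocount, filter, variance prior, arrays used, blocks, day term and pools; the scalings of the gene lists were chosen after seeing the data.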

Additional observations from a re-analysis of the deposited data

Results flagged for a closer look

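Some member probe sets had the arrays of the compared pools fully apart in opposite directions at the 2 days; in each case the difference between the days was not tested, as there is 1 pool per condition and day. RT1-Db1 rc_AI169390_at in L5 against sham was at -0.89 at 50 days and 0.48 at 28 days (log2), and in L5 against L4 at -0.43 and 0.70. The untested RT1-Bb rc_AI228153_s_at in L5 against sham was at -0.48 at 50 days and 1.03 at 28 days. Cd74 rc_AI105172_r_at in L4 against sham was at -0.52 at 50 days and 1.12 at 28 days.

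Signal also appeared in probe sets that were too dim on average to be tested, where both 28-day L5 arrays were more than 2 times the highest of the sham arrays. The lower 28-day L5 array of Cd74 X14254cds_g_at read 62.2, against 12.5 on the highest sham array. For RT1-DMa Z49761_at the lower 28-day L5 array read 99.5, against 15.6 on the highest sham array.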

How the results depend on the processing

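Counts of called probe sets are given as L5 against sham, L5 against L4, and 50 against 28 days (123, 203 and 45 as reported). They were 42 (17 higher, 25 lower), 53 and 15 with quantile normalization, 423 (46 higher, 377 lower), 674 and 97 with median centring, and 2408 (49 higher, 2359 lower), 5223 and 486 with hybridisation controls, which also gave 4 for L4 against sham and moved the median of all probe sets to -0.35 in L5 against sham. They were 31, 19 and 23 with no filter, where more probe sets were tested. They were 4, 0 and 0 with no intensity trend, 1, 1 and 2 with the first array only, and 2, 0 and 5 with the second; without the day term 0 were called in either L5 comparison. With the 12 arrays of a chip type and the pool as a random block they were 1113, 1380 and 1026 (1 for L4 against sham). That was 7.08%, 8.78% and 6.53% of all probe sets, and 5, 4 and 4 of the 19 members were called. The array numbers did not pair samples (r above 0.1 in 1 of 45 comparisons of pools, range -0.10 to 0.11). With the array number as a replicate block besides, the same members were called. The counts were then 970, 1174 and 791 (6.17%, 7.47% and 5.03% of all probe sets). With 1 pool left out they ran from 31 to 621, 112 to 790 and 69 to 454, and from 2 to 10 for L4 against sham; in these fits the lone pool is assumed to vary like the others. Without the sham array with 2 days in its labels the counts were 108, 151 and 37, and Cd74 X13044_g_at was the member called in each. The cause of these moves was not tested.

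Cd74 X13044_g_at kept its direction under every alternative run. Its differences ran from 1.54 to 2.53 in L5 against sham (adjusted p up to 0.404), from 1.18 to 2.14 in L5 against L4, and from -1.86 to -1.33 for the day. For the day, its call was also lost with quantile normalization (adjusted p = 0.0504), no intensity trend (0.197) and the first or second array only (0.0562 and 0.246). Directions that turned were all of values that had missed the threshold. With hybridisation controls, RT1-Ha was at -0.089 in L5 against sham, and in L5 against L4 RT1-Da M15562_at was at -0.039, RT1-Bb M36151cds_s_at at -0.081, RT1-DMa at -0.068, RT1-Db1 X53054_at at -0.043, RT1-Bb X56596_at at -0.02, Cd74 rc_AI105172_r_at at -0.276 and RT1-Db1 rc_AI169390_at at -0.221. With the second array only, RT1-Ha was at -0.033 and Cd74 rc_AI105172_i_at at 0.065 in L5 against sham, and in L5 against L4 RT1-Ba X07551cds_s_at was at 0.126, Cd74 rc_AI105172_i_at at 0.039 and rc_AI105172_r_at at -0.036. With 1 pool left out, L5 against sham ran from -1.045 to 0.572 for Cd74 rc_AI105172_i_at, -0.201 to 1.215 for rc_AI105172_r_at and -0.829 to 0.422 for RT1-Db1 rc_AI169390_at. L5 against L4 then ran from -1.515 to 0.102 for Cd74 rc_AI105172_i_at, -0.315 to 0.729 for rc_AI105172_r_at, -0.067 to 1.037 for RT1-Da M15562_at, -0.108 to 0.938 for RT1-Bb M36151cds_s_at, -0.221 to 1.012 for RT1-Db1 X53054_at and -0.493 to 0.758 for rc_AI169390_at. Among gene lists in L5 against sham, rescaled as an alternative chosen after seeing the data, medians that turned were -0.049 for class II partners and -0.022 for class I genes with median centring. With hybridisation controls they were -0.319 for partners, -0.173 for the route to CIITA, -0.32 for class I, -0.037 for T cells and -0.066 for Schwann cells. Signals near the brightness filter limit what RT1-Ha and RT1-Db1 X53054_at can show.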
